A study of Homo sapiens with 6 samples.

Results

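Very long domains of histone lysine acetylation (Kac) were examined in cells labelled HepG2, an established human hepatoblastoma-derived line. A domain was a Kac peak of control cells on chromosomes 1 to 22 or X that was at least 10 kb long, and 633 of 70326 control Kac peaks met this rule, a share of 0.900% (Wilson 95% interval 0.833 to 0.973, counting error only). The series holds 6 libraries of micrococcal nuclease-digested chromatin, 1 library per group: input, Kac and lysine benzoylation (Kbz), each from untreated control cells and from cells given 10 mM sodium benzoate (SB) for 24 h before harvest. The peak lists analysed were those of Kac without and with SB, and of Kbz with SB. The labels state that the untreated Kbz library gave no peaks, so Kbz has no untreated counterpart. The antibodies were pan antibodies, which do not tell which histone or lysine carried the mark. Because each group had 1 library, no difference could be set against replicate error and no test between groups was made. The lists carry no read totals, so sequencing depth is unknown, and a deeper library gives more and longer peaks from the same chromatin.

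Acetylation of histone tails loosens the contact of nucleosomes with DNA and recruits bromodomain proteins, and it marks active promoters and enhancers. Most acetylated sites are short, at 1 promoter or 1 enhancer. Long unbroken acetylated stretches are known from clusters of enhancers and from whole gene clusters, such as the active HOX clusters, whose genes encode homeodomain transcription factors that set position along the body axis. Kbz is a bulkier acyl mark that forms from benzoyl CoA, which cells make from SB.

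The label was first checked against liver genes. Of 24 genes for proteins that liver secretes, 5 had an annotated transcription start site (TSS) within a control Kac peak, 6 within a peak of SB Kac and 2 within a peak of Kbz. Among all 19970 protein-coding genes these shares were 66.8%, 67.0% and 53.0%. The starts of ALB (albumin), APOA1, APOB, SERPINA1 (alpha-1 antitrypsin), TTR and the fibrinogen genes FGA, FGB and FGG were free of peaks in each of the 3 lists, and so were those of the hepatocyte regulators HNF4A, FOXA2 and CEBPA. Of 22 liver transcription factors, the starts of 13 lay within control Kac, those of 12 within SB Kac and those of 9 within Kbz. The markers of other cell types were at 7 of 10 for neurons, 3 of 10 for blood cells, 3 of 6 for kidney and 3 of 5 for muscle under control Kac. None of the genes of these 4 marker lists or of the secreted liver proteins had a start in a long domain, but only 1.97% of all protein-coding genes had one, so in lists this short a count of 0 is near the background. The liver identity given by the label was thus not visible at most of its defining genes in these lists.

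To show the DNA behind the main contrast, 200 bp windows are printed from hg38 with every CpG dinucleotide in capitals. The first 4 windows lie under Kbz peaks, in a pair of domains with very high Kbz coverage and in the longest domains of all. The last 4 lie in control Kac domains at places with no SB Kac peak. Each window was taken as near as possible to the middle of the longest such stretch, clear of annotated exons, and was not chosen by its sequence.
Kbz stretch at PRRT2 in the MAZ domain, chr16:29812760-29812959, plus strand: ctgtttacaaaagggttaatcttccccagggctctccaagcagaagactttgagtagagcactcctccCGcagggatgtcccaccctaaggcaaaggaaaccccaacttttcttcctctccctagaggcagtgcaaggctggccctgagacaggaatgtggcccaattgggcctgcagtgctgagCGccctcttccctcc
Kbz stretch in SAMD11, chr1:940146-940345, plus strand: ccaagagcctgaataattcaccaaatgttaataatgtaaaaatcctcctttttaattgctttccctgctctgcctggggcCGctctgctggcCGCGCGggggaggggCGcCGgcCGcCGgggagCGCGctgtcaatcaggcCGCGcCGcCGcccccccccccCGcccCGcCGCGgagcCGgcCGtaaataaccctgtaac
Kbz stretch in the HOXC domain, chr12:54032020-54032219, plus strand: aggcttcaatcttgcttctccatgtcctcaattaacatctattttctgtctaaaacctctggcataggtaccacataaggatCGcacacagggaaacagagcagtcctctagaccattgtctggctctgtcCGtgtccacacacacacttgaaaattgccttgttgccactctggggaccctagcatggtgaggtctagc
Kbz stretch in the HOXA domain, chr7:27172174-27172373, plus strand: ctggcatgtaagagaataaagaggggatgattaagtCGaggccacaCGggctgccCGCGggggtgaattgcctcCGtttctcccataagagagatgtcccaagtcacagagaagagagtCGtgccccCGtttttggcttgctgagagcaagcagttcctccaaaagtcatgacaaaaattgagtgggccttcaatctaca
Stretch without SB Kac in the CAMK2A domain, chr5:150273970-150274169, plus strand: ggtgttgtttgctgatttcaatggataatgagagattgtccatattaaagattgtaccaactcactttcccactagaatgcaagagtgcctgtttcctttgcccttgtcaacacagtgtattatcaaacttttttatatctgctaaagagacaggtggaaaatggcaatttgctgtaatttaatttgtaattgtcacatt
Stretch without SB Kac in the ESR1 domain, chr6:152051962-152052161, plus strand: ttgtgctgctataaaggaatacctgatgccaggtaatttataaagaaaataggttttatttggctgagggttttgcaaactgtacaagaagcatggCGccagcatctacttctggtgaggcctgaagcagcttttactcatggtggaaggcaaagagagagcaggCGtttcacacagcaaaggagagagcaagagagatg
Stretch without SB Kac in the POPDC2 domain, chr3:119648669-119648868, plus strand: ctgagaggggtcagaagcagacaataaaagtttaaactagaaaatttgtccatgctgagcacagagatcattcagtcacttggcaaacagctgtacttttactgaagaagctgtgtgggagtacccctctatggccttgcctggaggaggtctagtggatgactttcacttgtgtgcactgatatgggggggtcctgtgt
Stretch without SB Kac in the domain nearest MBTPS2, chrX:21811791-21811990, plus strand: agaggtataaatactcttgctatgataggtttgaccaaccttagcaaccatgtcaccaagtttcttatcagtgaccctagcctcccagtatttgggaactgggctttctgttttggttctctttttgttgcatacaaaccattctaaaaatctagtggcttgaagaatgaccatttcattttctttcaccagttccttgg

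The window in SAMD11 held 20 CpG and was 64.5% G or C, and the window in the HOXA domain, intronic to HOXA9 and HOXA10 transcripts, held 7 CpG. The windows at PRRT2 and in HOXC4 held 2 each. Of the windows without SB Kac, the one in an intron of ESR1 held 2 CpG, and those in CAMK2A, in POPDC2 and in intergenic DNA of chromosome X held 0.

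The domains had lengths of 10005 to 86194 bp with a median of 12215 bp. The quartiles were 10897 and 14404 bp, 134 domains reached 15 kb, 55 reached 20 kb, 12 reached 30 kb and 4 reached 50 kb. Together they covered 8.87 Mb, or 6.80% of all bases under control Kac peaks. Control Kac length chose these regions, so their length is a description, and the control Kac fold over background, which stood at a median percentile of 85.2 of its list, came from the same library. The peaks just inside the rule were 10005, 10009 and 10019 bp long, and those just outside were 9986, 9990 and 9999 bp long. SB Kac covered 100%, 53.2% and 94.2% of those inside, and 59.4%, 85.5% and 72.4% of those outside. Both SB libraries were independent of the rule. Neighbouring peaks of a list were never closer than 1121 bp in any of the 3 lists, so a break within a domain is a stretch of at least that length with no peak.

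Acetylation was found in every long domain after SB. Each of the 633 touched at least 1 SB Kac peak (100%, interval 99.4 to 100), against 64.7% of all control Kac peaks and 98.2% of those of 5 to 10 kb. At least 50% of the bases were under SB Kac in 561 domains, or 88.6% (85.9 to 90.9), against 51.0% of all control Kac peaks. All bases were under SB Kac in 79 domains, or 12.5% (10.1 to 15.3), against 15.1% of all peaks, which had a median length of 1211 bp. A longer peak has more bases that must all be covered, so the share fully covered depends on length. The median coverage was 85.0%, with quartiles of 65.0% and 96.0% and a lowest value of 4.85%. Pooled over bases, SB Kac covered 79.3% of the domains. This coverage was higher than in shorter classes: it was 71.2% of the bases in peaks of 5 to 10 kb and 66.1% in peaks of 2 to 5 kb, with medians of 75.9% and 74.4% per peak. The control Kac fold increased with length too, from a median percentile of 71.9 at 2 to 5 kb to 85.2 in the long domains, and its part in the coverage was not tested.

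Kbz was found in most of the domains but over a smaller part of each. A Kbz peak touched 580 domains, or 91.6% (89.2 to 93.5), against 30.3% of all control Kac peaks and 75.4% of those of 5 to 10 kb. A longer peak has more bases that can be touched, so the share touched depends on length. At least 50% of the bases were under Kbz in 95 domains, or 15.01% (12.4 to 18.0), against 15.8% of all control Kac peaks, a share near the background of all lengths together. Median Kbz coverage was 22.7%, with quartiles of 10.97% and 37.2%, and the pooled coverage was 27.9%. The upper quartile was higher in the next shorter classes, 42.1% at 5 to 10 kb and 53.6% at 2 to 5 kb, with medians of 22.6% and 17.8%. Unlike SB Kac coverage, pooled Kbz coverage did not go on increasing with length, since it was 26.2% in peaks of 5 to 10 kb and 28.3% in peaks of 2 to 5 kb. Of the Kbz bases in the domains, 0.570% lay outside SB Kac peaks. The domains held 7.66% of all Kbz bases. The median length of Kbz peaks was 1555 bp where they touched a domain and 1080 bp elsewhere, but the fold of the former stood at a median percentile of 46.5 of the Kbz list, against 50.2 for the others. Of all Kbz peaks 4.41% touched a long domain, and of the 26 Kbz peaks of at least 10 kb 23 did. The domains were chosen for long acetylation, and nearly all Kbz bases in them lay under SB Kac. Whether the length of Kbz peaks depends on that of acetylated stretches was not tested.

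**Figure D1:**
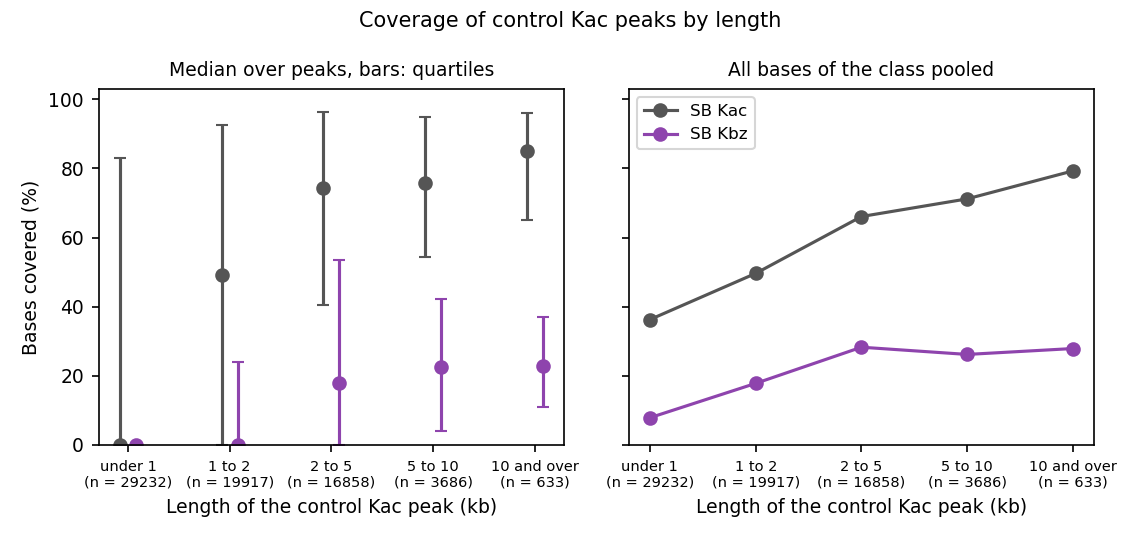
Coverage of control Kac peaks by SB Kac (grey) and SB Kbz (purple) peaks, in percent of bases, for 5 classes of control Kac length in kb. On the left, points are medians over peaks and bars are quartiles; on the right, points are all bases of a class pooled. SB Kac coverage reaches 79.3% in the longest class, whereas Kbz coverage is 28.3%, 26.2% and 27.9% in the last 3 classes.

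Many domains held more than 1 SB Kac peak. In 332 domains, or 52.4% (48.6 to 56.3), at least 2 separate SB Kac peaks were found, against 28.6% of control Kac peaks of 5 to 10 kb and 3.29% of all control Kac peaks, most of which are too short to hold a break. With SB peaks under a −log10 q of 5 left out, the share in the long domains was 14.7%. Leaving out whole peaks closes no gap, so this lower share does not mean fewer breaks. In the full list the remaining 301 domains touched a single SB Kac peak. There were 213 domains with 2 SB Kac peaks, 88 with 3, 23 with 4, 7 with 5 and 1 with 6. The bases without SB Kac added up to 1.84 Mb, of which 0.956 Mb (52.1%) lay between SB Kac peaks and 0.880 Mb at the outer edges. A single SB Kac peak of at least 10 kb touched 307 domains, or 48.5% (44.6 to 52.4). In 168 domains the longest SB Kac peak was longer than the domain itself.

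In the mirror comparison the share with breaks was similar and coverage was higher. The SB Kac list held 546 peaks of at least 10 kb, and 304 of these (55.7%) touched a long control Kac domain. Their control Kac coverage had a median of 88.0% and was 85.0% of bases when pooled, against 85.0% and 79.3% in the forward direction. At least 2 control Kac peaks were found in 282 of them (51.6%), close to the 52.4% of control domains with at least 2 SB Kac peaks. Coverage under 50% was found in 23 long SB Kac peaks (4.21%) and in 72 long control Kac domains (11.4%). The remaining 242 long SB Kac peaks touched shorter control Kac peaks, with a median control Kac coverage of 74.2% and a lowest value of 20.4%. Breaks and partial coverage were thus seen in both directions.

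Within the domains both marks were sparser towards the edges. SB Kac covered 52.0% of the outermost 250 bp, 70.0% of the step from 750 to 1000 bp and 82.7% of that from 4750 to 5000 bp. For Kbz the same steps gave 6.16%, 16.4% and 32.4%. SB Kac started at 52.0% and could not have increased by the factor seen for Kbz, so the increases of the marks are not ranked. SB Kac also reached beyond the control edges, with 33.7% of the first 250 bp outside, whereas Kbz covered 1.60% of that step. Since the edge is set by the control Kac call, a decline of control Kac there is fixed by the rule, and that of the other marks is a description.

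**Figure D2:**
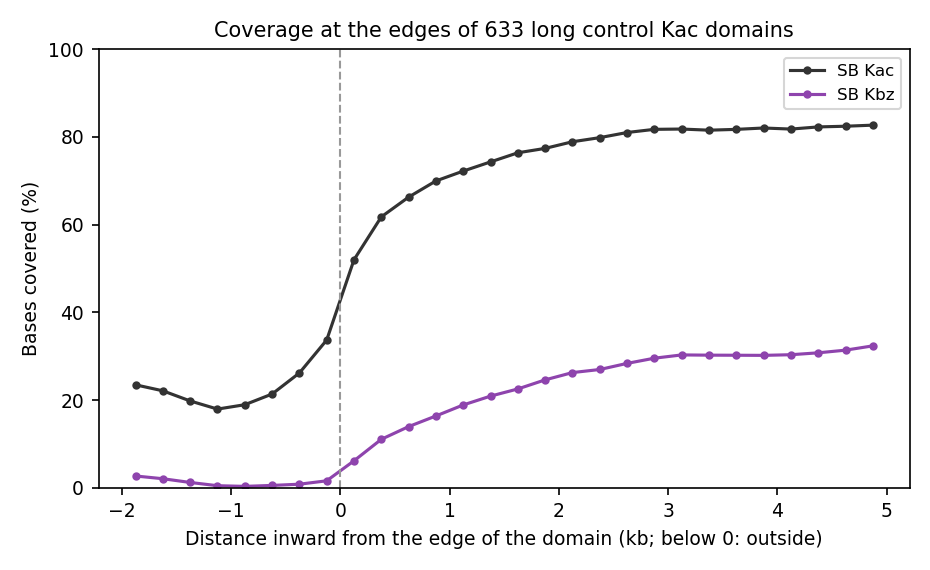
Percent of bases under SB Kac (black) and SB Kbz (purple) peaks by distance in kb from the edges of the 633 long control Kac domains, in steps of 250 bp, both edges pooled; the dashed line is the edge and values below 0 are outside. SB Kac is at 52.0% just inside and 82.7% at the innermost step, and Kbz at 6.16% and 32.4%.

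Next, genes inside the domains were identified with GENCODE 44. At least 1 start of a protein-coding gene lay in 308 domains, or 48.7% (44.8 to 52.5), against 20.1% of all control Kac peaks. In the class of 5 to 10 kb the share was 49.1% (47.4 to 50.7), so the share in long domains was not above that of the next class. Another 104 domains (16.4%) held only starts of other genes, most often long noncoding RNAs, and 221 (34.9%) held no annotated start. Any annotated start was found in 24.2% of all control Kac peaks. In all, 393 protein-coding genes had a start in a domain, or 1.97% of those annotated. So did 292 of 18756 annotated genes of long noncoding RNAs, and 26 of 1877 annotated microRNA genes lay fully inside. A single protein-coding gene was found in 251 domains, and 57 held 2 or more. Of the 325 domains without a protein-coding start, 117 lay at least partly within a protein-coding gene. Their nearest protein-coding start was at a median distance of 36275 bp, and beyond 100 kb for 90 of them. By bases, the domains were 11.7% exonic, 58.0% intronic and 30.3% intergenic, close to the 13.4%, 56.1% and 30.4% of all control Kac peaks.

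Coverage differed between these classes of domain. Domains with a protein-coding start had a median SB Kac coverage of 88.8% and a median Kbz coverage of 30.4%. Domains with other starts only stood at 87.5% and 22.7%, and domains without a start at 75.6% and 12.7%. Kbz peaks were absent from 39 of the 221 domains without a start, or 17.6% (13.2 to 23.2), from 4 of the 104 with other starts and from 10 of the 308 with a protein-coding start, or 3.25% (1.77 to 5.87). Each of the 57 domains with 2 or more protein-coding genes had a Kbz peak, and their median Kbz coverage was 46.1%. At least 2 SB Kac peaks were found in 66.1% (59.6 to 72.0) of the domains without a start and in 41.9% (36.5 to 47.5) of those with a protein-coding start. Median lengths were 12426 and 11992.5 bp, and median percentiles of control Kac fold 82.9 and 85.2.

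**Figure D3:**
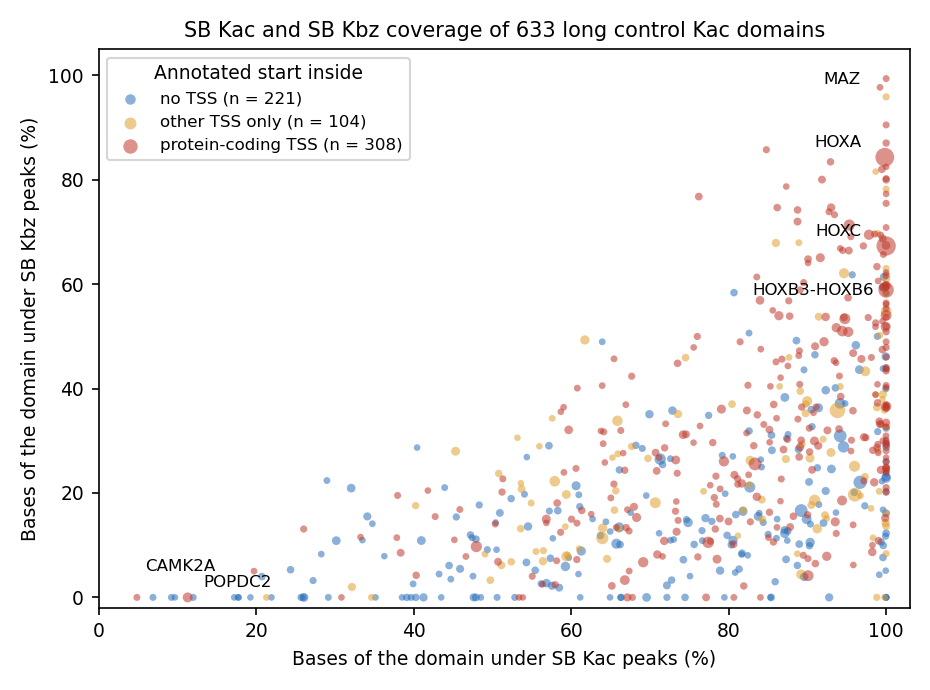
Percent of the bases of each of the 633 long control Kac domains under SB Kac (horizontal axis) and SB Kbz peaks (vertical axis). Each point is a domain, its area grows with length, and the colour gives the annotated starts inside; 95 domains reach 50% Kbz coverage, 75 of them with a protein-coding start, and none of these 95 is under 50% SB Kac coverage.

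Distance from the TSS gave the same contrast inside the domains. Within 1 kb of any annotated TSS, 54.4% of the domain bases were under Kbz, against 20.9% farther away. SB Kac coverage was 89.6% and 76.6% in these parts. In control Kac peaks of 2 to 5 kb the Kbz values were 56.0% near a TSS and 12.6% away from it, and in peaks of 5 to 10 kb they were 52.3% and 15.9%. Near a TSS the long domains were thus within the range of the shorter classes, and away from it their Kbz coverage was higher. Of the 393 protein-coding genes with a start in a domain, 382 had a start under SB Kac, or 97.2% (95.1 to 98.4), and 285 had one under Kbz, or 72.5% (67.9 to 76.7). For genes with a start in peaks of 2 to 5 kb the Kbz share was 80.7% (79.8 to 81.6), above that of the long domains.

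The base composition of the domains was also compared, since the rule made no use of sequence. Per kb the domains held 18.9 CpG dinucleotides, against 22.4 in all control Kac peaks. Inside the domains the parts under Kbz held 32.4 CpG per kb and the parts without Kbz 13.7, with 52.2% and 46.2% G or C. Parts with SB Kac held 20.5 and parts without it 12.6 CpG per kb. In 554 domains both the Kbz part and the remainder had at least 500 bp, and CpG was denser under Kbz in 460 of them. This count was 252 of 291 for domains with a protein-coding start, 79 of 97 for those with other starts only and 129 of 166 for those without a start. The contrast was smaller in the last class, where medians were 13.4 CpG per kb under Kbz and 9.50 outside, against 37.3 and 16.1 with a protein-coding start. It was larger in peaks of 2 to 5 kb, with 48.6 CpG per kb under Kbz and 17.2 outside. Across the 633 domains Kbz coverage and CpG density had a Spearman correlation of 0.53, and SB Kac coverage and CpG density one of 0.26. The domains share their libraries and are not replicates, and Kbz coverage moved with control Kac fold as well (Spearman 0.50), so these values describe the lists.

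**Figure D4:**
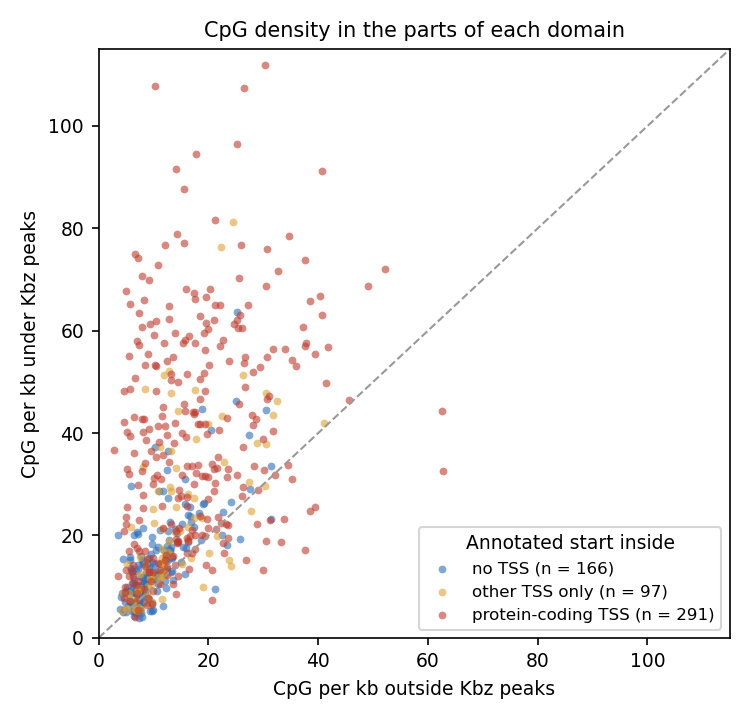
CpG dinucleotides per kb in the parts of a domain outside Kbz peaks (horizontal axis) and under them (vertical axis), for the 554 domains with at least 500 bp of each; the dashed line marks equal density and colours give the annotated starts inside. In 460 domains the point lies above the line.

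When the domains were put into 4 groups of equal size by CpG density, pooled Kbz coverage was 15.04%, 20.3%, 30.7% and 46.8% from the poorest to the richest group. SB Kac coverage was 72.1%, 75.8%, 82.8% and 87.2%. Kbz peaks were absent from 30 of the 159 domains of the poorest group and from 1 of the 158 of the richest. A protein-coding start was present in 23 domains of the poorest and 135 domains of the richest group.

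Of the 4 domains of at least 50 kb, 3 lay in HOX clusters. The HOX genes had the highest share of all the gene lists: 28 of 39 had a start in a long domain (71.8%), against 1.97% of protein-coding genes. Adjacent HOX genes share a domain, so these are not 28 separate observations. The longest domain (chromosome 12, 53960838 to 54047031, hg38) spanned 86194 bp and held the starts of HOXC4, HOXC5, HOXC6, HOXC8, HOXC9, HOXC10 and HOXC11, together with HOTAIR, a long noncoding RNA transcribed from this cluster. It was fully covered by a single SB Kac peak of 100848 bp, the longest of the SB Kac list, and 9 Kbz peaks covered 67.3% of it. The HOXA domain (chromosome 7, 27109092 to 27190531) was 81440 bp long and held HOXA3, HOXA4, HOXA5, HOXA6, HOXA7, HOXA9, HOXA10 and HOXA11. An SB Kac peak of 82407 bp covered 99.8% of it, and 5 Kbz peaks covered 84.3%, among them the longest Kbz peak of all with 34633 bp. The domain of HOXB3, HOXB4, HOXB5 and HOXB6 (chromosome 17, 48552239 to 48606990) was 54752 bp long, with an SB Kac coverage of 100% and a Kbz coverage of 58.9% in 6 peaks. Next to it HOXB7, HOXB8 and HOXB9 lay in a domain of 24318 bp that was 97.8% under SB Kac and 69.5% under Kbz.

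The HOXD cluster differed from the others in how many of its genes lay in long domains. All 10 HOXB genes, 10 of 11 HOXA genes and 7 of 9 HOXC genes had a start in a long domain, against 1 of 9 HOXD genes, HOXD13, the last gene of its cluster. Apart from HOXD4 and HOXD12, every HOXD gene had a start under a control Kac peak of some length. The HOXD13 domain was 11401 bp long and stood at 98.1% SB Kac and 46.0% Kbz coverage. From the first to the last HOX gene, control Kac covered 89.5% of HOXA, 61.9% of HOXB, 91.3% of HOXC and 49.3% of HOXD. The HOXB span was the longest, at 200 kb against 98.2 to 117 kb for the others. It includes the DNA between the HOXB9 domain, which ended at 48632998, and the HOXB13 domain, which began at 48718291. That DNA held no long domain and counts in the HOXB percentages. SB Kac covered 95.6%, 62.7%, 96.1% and 64.0% of these spans, in the same order. Kbz covered 71.0%, 34.0%, 58.2% and 23.2%, so the order of HOXA above HOXC in Kbz was not that of the Kac lists. At the edge of the HOXB cluster the HOXB1 domain had the lowest Kbz coverage of these, 8.06%, with 89.5% under SB Kac.

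The other domains among the 10 longest held few protein-coding starts. A domain of 55543 bp on chromosome 8 (37509164 to 37564706) lay over LINC01605, a long noncoding RNA, with 93.8% under SB Kac and 35.8% under Kbz. The domain at LINC02381 next to SMUG1, a gene for a uracil-DNA glycosylase of base excision repair, was 44603 bp long (chromosome 12, 54125929 to 54170531), with 96.0% under SB Kac and 19.7% under Kbz. A pair of neighbouring domains lay wholly in introns of ADAM12, a membrane metalloprotease, on chromosome 10. They were 40551 bp (126184674 to 126225224) and 37702 bp (126226789 to 126264490) long, with 96.7% and 94.2% under SB Kac, 22.05% and 30.9% under Kbz, and a single SB Kac peak of 75632 bp touched both. The domain in ZMIZ1, a coregulator of the PIAS family, was 38127 bp long (chromosome 10, 79127689 to 79165815), with 89.2% under SB Kac in 3 peaks and 16.6% under Kbz. The domain of DDIT4, a stress-induced inhibitor of mTORC1, was 37806 bp long (chromosome 10, 72242706 to 72280511) and 90.6% intergenic. In it 4 SB Kac peaks covered 83.4% and 6 Kbz peaks 25.6%. The last of the 10, of 34104 bp at LINC01354 (chromosome 1, 234517276 to 234551379), held 6 SB Kac peaks, the highest number of any domain. Its SB Kac coverage was 64.0%, its longest SB Kac peak had 5754 bp, and Kbz covered 11.3%. All of these non-HOX domains stood below the 3 HOX domains in Kbz coverage.

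**Figure D5:**
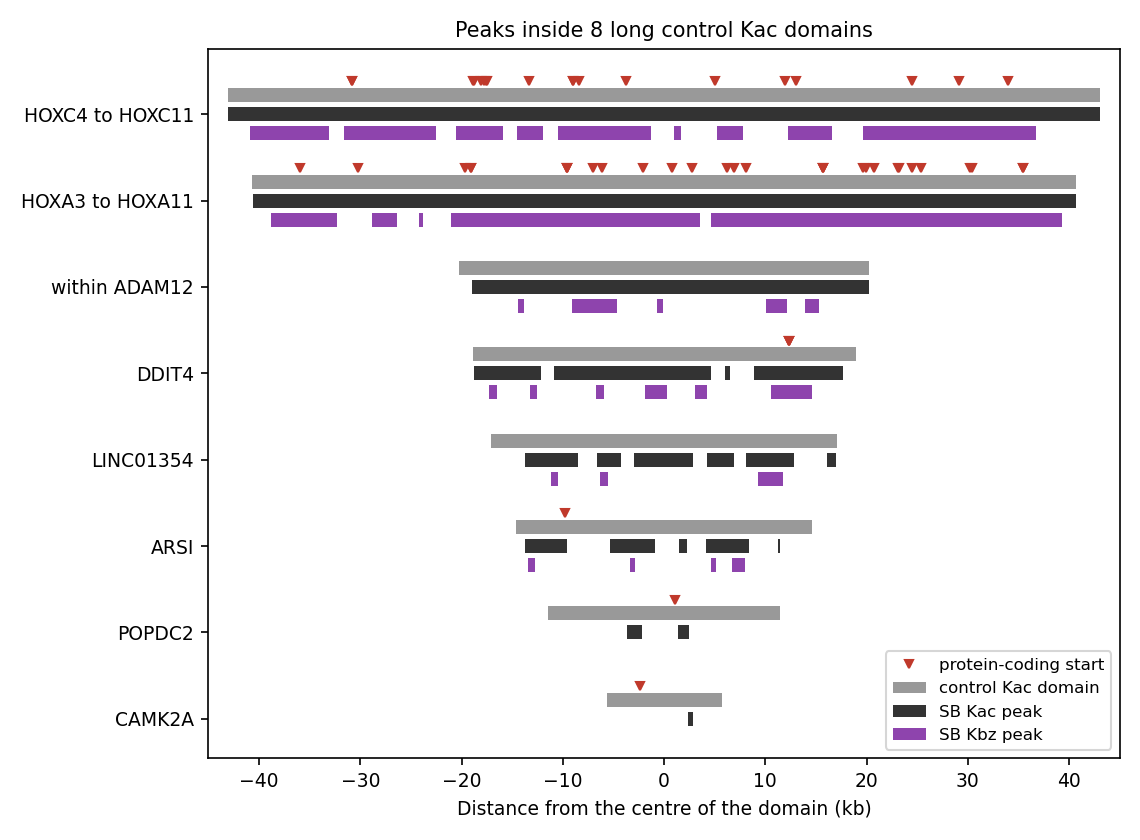
Peaks inside 8 long control Kac domains, drawn to scale by distance in kb from the centre of each domain. Grey bars are the control Kac domain, black bars SB Kac peaks, purple bars SB Kbz peaks and red triangles starts of protein-coding transcripts; the HOX domains are under unbroken SB Kac, the LINC01354 domain holds 6 SB Kac peaks, and the POPDC2 and CAMK2A domains hold no Kbz peak.

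The domains with the highest Kbz coverage were short and held starts. The first (chromosome 16, 29807332 to 29818457, 11126 bp) held MAZ, a zinc finger transcription factor, PRRT2, a presynaptic protein, and PAGR1, which associates with histone H3 lysine 4 methyltransferase complexes. A single Kbz peak covered 99.4% of it and SB Kac 100%. The domain of SAMD11 and NOC2L (chromosome 1, 935125 to 945760, 10636 bp) was 97.7% under Kbz and 99.2% under SB Kac. NOC2L is known as an inhibitor of histone acetyltransferases. The next domain (chromosome 5, 93596285 to 93608287, 12003 bp) ended 4312 bp from a start of NR2F1, an orphan nuclear receptor, and was 95.9% under Kbz and 100% under SB Kac. Their CpG densities were 42.0, 53.4 and 23.7 per kb, all above the 18.9 of the domains pooled. Full SB Kac coverage was also found in the domain of ZNF608, a zinc finger protein (chromosome 5, 124728910 to 124755984, 27075 bp), which had 12.3 CpG per kb and 54.0% under Kbz.

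At the other end were domains with little SB Kac. The lowest coverage was 4.85% in the domain of CAMK2A, the alpha subunit of calcium/calmodulin-dependent kinase II (chromosome 5, 150270061 to 150281435, 11375 bp), whose single SB Kac peak had 552 bp. A domain in introns of ESR1, the estrogen receptor alpha (chromosome 6, 152046967 to 152058342, 11376 bp), had 6.90% under SB Kac, and one in introns of ME3, a mitochondrial malic enzyme (chromosome 11, 86627715 to 86638929, 11215 bp), had 9.24%. None of the 3 touched a Kbz peak. Their control Kac folds stood at percentiles 31.2, 46.2 and 56.2 of the list, below the median of 85.2 for all long domains.

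The longest domain without Kbz was that of POPDC2, a cAMP-binding membrane protein of muscle (chromosome 3, 119630060 to 119652907, 22848 bp). It was the 39th longest of all, and 2 SB Kac peaks of 1477 and 1106 bp covered 11.3% of it, although its control Kac fold stood at percentile 83.3. The next ones without Kbz were intergenic, at 23657 bp from MBTPS2 on chromosome X (21797406 to 21815960, 18555 bp, 26.1% under SB Kac) and at 54166 bp from RFX6 on chromosome 6 (116938955 to 116956595, 17641 bp, 69.6% under SB Kac). MBTPS2 encodes the site-2 protease that activates SREBP, and RFX6 a transcription factor of pancreatic islets. After LINC01354, 7 domains held 5 SB Kac peaks, and the longest of these were an intergenic domain at 43445 bp from FRMD1 (chromosome 6, 168144956 to 168174875), with 71.3% under SB Kac, and the domain of ARSI, an arylsulfatase (chromosome 5, 150298068 to 150327254), with 48.0% under SB Kac and 9.74% under Kbz.

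In all, 72 domains had under 50% SB Kac coverage. Of these, 49 held no annotated start, 16 a protein-coding start and 7 other starts, and 28 had no Kbz peak. Their median Kbz coverage was 4.35%, against 26.3% for the other 561, and their median CpG density was 9.70 against 17.5 per kb. Their control Kac fold stood at a median percentile of 79.5 (quartiles 70.8 and 88.7), against 85.9 (76.8 and 92.9). The part of the weaker control Kac was not tested, and with 1 library per group an effect of SB and a difference between libraries cannot be told apart.

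Other gene lists had few members in long domains, and their counts are to be read against the 1.97% of all protein-coding genes with a start there. Among 22 immediate early genes, which are induced within minutes by growth signals and stress, the starts of ATF3 and DUSP1 lay in domains. The ATF3 domain had 81.1% SB Kac and 22.7% Kbz coverage and the DUSP1 domain 93.5% and 14.5%. DDIT4 was the only member of 18 stress response genes. Of 16 genes of cholesterol and fatty acid metabolism, SCD, the stearoyl-CoA desaturase, had its start in a domain of 12457 bp with 89.3% SB Kac and 36.5% Kbz coverage, and ELOVL6, a fatty acid elongase, overlapped a domain away from its starts. TBX3 was the only member of 22 liver transcription factors, with 89.1% SB Kac and 58.9% Kbz coverage.

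Of 15 well-known long noncoding RNAs 4 had a start in a domain, HOTAIR, NEAT1, MALAT1 and SNHG1, against 292 of all 18756 annotated lncRNA genes. NEAT1, the scaffold RNA of paraspeckles, lay in a domain of 14451 bp with 91.4% SB Kac and 53.8% Kbz coverage, and MALAT1, a nuclear speckle RNA beside it, in one of 14741 bp with 89.8% and 35.3%. The SNHG1 domain was 100% under SB Kac and 77.3% under Kbz. The 4 cytosolic ribosomal protein genes of 82, RPL3, RPL23A, RPS15 and RPS18, had Kbz coverages of 72.0%, 87.0%, 83.4% and 66.5%, each above the upper quartile of 37.2% for all domains. RPL38 overlapped a domain away from its starts.

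Among families of transcription factors and signal transducers, KLF9 was the only member of 27 KLF and SP genes, and SOX13 the only one of 19 SOX genes. FOXP1 and FOXP2 were the members of 45 FOX genes. FOXP1 stood at 100% SB Kac and 20.1% Kbz coverage, whereas FOXP2 stood at 85.6% and 54.98%. ID3, an inhibitor of helix-loop-helix factors, was the member of 11 ID and HES genes, in a domain of 20068 bp with 93.7% and 51.7%. The inhibitory SMADs SMAD6 and SMAD7 were the members of 10 SMAD and TGIF genes, with Kbz coverages of 42.4% and 52.9%. None of the 69 replication-dependent histone genes, of 13 genes of acyl metabolism, acetyltransferases and deacylases, including SIRT2, or of the 4 genes followed up by the study had a start in a long domain, counts that are near the background of 1.97%. At their starts 38, 9 and 4 of these genes were under a shorter control Kac peak, against 66.8% of all protein-coding genes under any.

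Some long domains lay near one another. With a distance of at most 100 kb between neighbours, 222 domains (35.1%) fell into 85 groups of 2 or more, and the others had no long domain that near. The same count was not made for shorter peaks. The largest group, chosen for description after its values were seen like the groups below, held 12 domains over 509 kb of chromosome 8 (37295722 to 37804792) around ZNF703, a zinc finger corepressor, and ADGRA2, an adhesion G protein-coupled receptor. These 12 domains were 94.2% under SB Kac and 33.2% under Kbz. The 6 domains at the HOXB cluster were 96.6% and 51.1% covered, and 5 domains around SEMA3C, a secreted semaphorin, 93.5% and 16.1%. A group of 4 domains near IRF2BP2 and TARBP1 on chromosome 1 was 64.1% under SB Kac and 14.7% under Kbz.

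Chromosomes held unequal shares of long domains. On chromosome 8, 35 of 2113 control Kac peaks were at least 10 kb long (1.66%, 1.19 to 2.29), and on chromosome 10, 67 of 4301 (1.56%, 1.23 to 1.97). Of the 35 on chromosome 8, 12 lay in the group around ZNF703 and ADGRA2. The intervals treat neighbouring domains as separate and are therefore too narrow. The lowest shares were 0.457% (0.289 to 0.721) on chromosome 3 and 0.490% (0.258 to 0.929) on chromosome 22. In the SB Kac list chromosomes 10 and 8 also had the highest shares, 1.53% and 1.44%, and the lowest was 0.311% on chromosome 19. Median SB Kac coverage was highest on chromosome 16, at 96.3%, where 0.676% of control Kac peaks were long. It was 92.5% on chromosome 8, 88.7% on chromosome 10 and lowest on chromosome 6, at 69.8%.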

How the data were processed

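Per the labels and the methods of the study, chromatin was digested with micrococcal nuclease, immunoprecipitated and sequenced as single reads of 50 bp. The authors aligned reads with Bowtie 2.2.6 to hg38, kept unique alignments, removed duplicates with SAMtools 0.1.19 and called peaks with MACS 2.1.1 at a stated FDR of 0.01, per library. The deposited lists are broad peaks: each gives a fold, a linear ratio over background made by the authors, a deposited −log10 p and −log10 q, and a deposited display score that was not used. All 3 lists start at a −log10 q of 1.31, past the stated FDR, and the long domains at 2.05. The broad setting and background track are not given in the sources used here. Input libraries were not analysed here.

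Lengths are end minus start, and 3 control Kac peaks outside chromosomes 1 to 22 and X were not used. Coverage is the percent of a domain's bases under peaks of another list. Starts were those of all GENCODE 44 transcripts of a gene. Named domains were the 10 longest, 3 at each extreme of SB Kac coverage, 3 of highest Kbz coverage, the 3 longest without Kbz, the 3 with most SB Kac peaks, and those with a gene of the lists. The members, lists and rules were chosen with earlier results of these data known. Intervals are Wilson 95% intervals over peaks or genes. No test was possible with 1 library per group. Python 3.11.15, numpy 2.4.6, pandas 2.3.3, pysam 0.24.0, scipy 1.17.1, matplotlib 3.10.9, samtools 1.23.1 and bedtools 2.31.1 were used. The coverage code was tested on simulated data (0 of 2000 queries wrong), and 0 of 1266 values differed from bedtools. Alternatives were other thresholds of q and length, merging, other start definitions and a minimum coverage.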

Additional observations from a re-analysis of the deposited data

How the results depend on the processing

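Of 90 recalculations of 15 results, 55 stayed within 1.5 times of a count or within a Wilson interval, and 35 moved further. The interval was that of a share of the same number of domains. For medians, pooled coverages and shares of bases it is only a yardstick and does not measure their spread. No paired analysis was possible because the groups share only 1 replicate number, and leaving out a replicate could not be done. Where the construction of an alternative does not show it, the cause was not tested. Merging peaks within 1 kb changed no value, since no peaks lay that close. It was applied to each of the 15 results, so these recalculations are among the 55 by construction. The same holds for the number of long SB Kac peaks under the control threshold, which does not enter it.

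With SB lists at a −log10 q of at least 5, which removes SB peaks, 87.2% of the domains touched SB Kac. Over all domains SB Kac coverage was 75.5% at the median and 66.3% pooled, and 14.7% held 2 or more SB Kac peaks. Leaving out whole peaks closes no gap, so the lower count of peaks does not mean fewer breaks. Kbz was then in 62.2% of domains, at a median of 10.9% and a pooled 18.9%, with 42.6% near a TSS and 12.6% away from it. At a −log10 q of at least 2, 46.8% of the domains held 2 or more SB Kac peaks and 87.8% touched Kbz.

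With domains of at least 8 kb there were 1279 control Kac domains over 11.2% of the bases, 776 protein-coding genes and 1053 SB Kac peaks. The median SB Kac coverage was 81.9%, 46.8% had 2 or more SB Kac peaks and 86.6% touched Kbz. At 15 kb or more the numbers were 134 domains over 2.27% of the bases, 86 genes and 133 SB Kac peaks. SB Kac coverage was then 89.1% at the median and 82.6% pooled, 63.4% had 2 or more SB Kac peaks, 95.5% touched Kbz, 60.6% of bases near a TSS were under Kbz and 41.0% held a protein-coding start.

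With control peaks under a −log10 q of 5 left out, the domains made up 13.1% of the bases, 93.8% touched Kbz, and control Kac covered a median of 81.3% of long SB Kac peaks. With 1 canonical start per gene, 34.1% of the domains held a protein-coding start. At 3 kb from the TSS the near part was 41.6% under Kbz. Requiring 50% of the domain left 88.6% for SB Kac and 15.01% for Kbz. Kbz coverage near a TSS exceeded that away from it under each alternative tried for both.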
